A study of Hydra oligactis with 61 samples.

Results

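The transcript R030089c1g1_i01 of the brown hydra *Hydra oligactis* carries the protein match dopamine receptor 4 in the study's annotation. It is 1 of 23396 transcripts in the counts table and was chosen by its identifier, for its rise within 3 h of amputation. It was described in 61 poly(A) RNA-seq libraries of 16 groups. All animals were of strain Innsbruck 12, kept at 18 °C, and each sample pooled 30 tissue pieces.

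Animals were bisected at the middle of the body column, and the tissue next to the wound was taken at 0, 3, 12, 24 or 48 h post amputation (hpa). ALP tips were aboral-facing wounds of upper body parts kept in 5 µM alsterpaullone for 3 h and then washed, with 3 libraries at 3, 12 and 24 hpa and 4 at 48 hpa. Alsterpaullone inhibits the kinase GSK3 and thereby stabilizes β-catenin, the effector of Wnt signaling. HR tips were oral-facing wounds of lower body parts, which regrow a head, and FR tips were aboral-facing wounds of upper body parts, which regrow a foot in only some of the animals. HR and FR tips were both kept in DMSO, with 7 libraries each at 0 hpa and 3 each at the later times. FR libraries therefore mix animals that would and would not have regrown a foot. Foot (peduncle and basal disk) and Head (cut just below the tentacles) were the ends of uninjured animals, with 5 libraries each.

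The submitted design text gives 0.5% DMSO for 3 h at 3, 12 and 48 hpa, 0.05% at 24 hpa, and 0.05% for 30 s at 0 hpa and in Foot and Head. The study's methods give 0.05% throughout. Differences from 0 hpa and the length of the DMSO exposure cannot be told apart.

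Dopamine is an amine messenger made from tyrosine by way of aromatic-L-amino-acid decarboxylase. Its receptors sit in the cell membrane and signal through G proteins, D1-like receptors raising and D2-like receptors lowering cyclic AMP in vertebrates. The gene dop-4 encodes a dopamine receptor of the nematode *Caenorhabditis elegans*. Hydra has a diffuse nerve net, and amputation is followed within hours by stress and injury transcription, in which bZIP factors such as Fos and CREB act in many animals. The match is one of sequence, and which ligand the *Hydra* protein binds was not measured here.

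Library totals lay between 14.55 M and 26.11 M counts (M for mega), with a median of 18.27 M. Levels are CPM (counts scaled to a library total of 1 M) after TMM scaling, a library factor estimated from all transcripts, whose values lay between 0.819 and 1.087. The factors were lowest in Foot (0.871 to 0.892) and Head (0.819 to 0.859). At a level of 0.5 CPM the transcript had about 10 reads, and 1 to 9 reads in the FR libraries at 0 hpa, so counting error is large there. The numbers of libraries below only name them. Nothing says that the pools came from separate cultures, so p-values measure only the spread between these samples.

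The transcript was all but silent in fresh wounds, was among the steepest risers of the transcriptome at 3 hpa, and had mostly fallen back by 12 hpa. In FR tips at 3 hpa it had 661, 742 and 738 reads, or 41.53, 42.05 and 44.34 CPM. In FR tips at 0 hpa it ranged over 0.0643 to 0.576 CPM with a median of 0.318 CPM over 7 libraries. Every FR library at 3 hpa lay far above every FR library at 0 hpa, and the fitted fold was 125 (log2 6.96 ± 0.33, SE). Only 3 of the 17676 transcripts tested had a larger fitted rise in FR tips.

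At the oral wound the same was seen on a wider spread. HR tips at 3 hpa had 37.67, 20.36 and 40.41 CPM, against 0.249 to 0.832 CPM with a median of 0.500 CPM in 7 HR libraries at 0 hpa. The groups did not overlap, and the fitted fold was 63.1 (log2 5.98 ± 0.32, SE), with 18 transcripts rising more. These rises chose the transcript, so they were not tested. Of all transcripts, 11.3% were called in FR and 10.6% in HR tips in these comparisons, which is given as background only. Within the first sequencing batch, which holds all libraries at 3 hpa, FR tips at 0 hpa had 0.0643, 0.5261, 0.3046 and 0.5761 CPM and HR tips had 0.2493, 0.5567, 0.2908 and 0.8318 CPM.

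**Figure D1:**
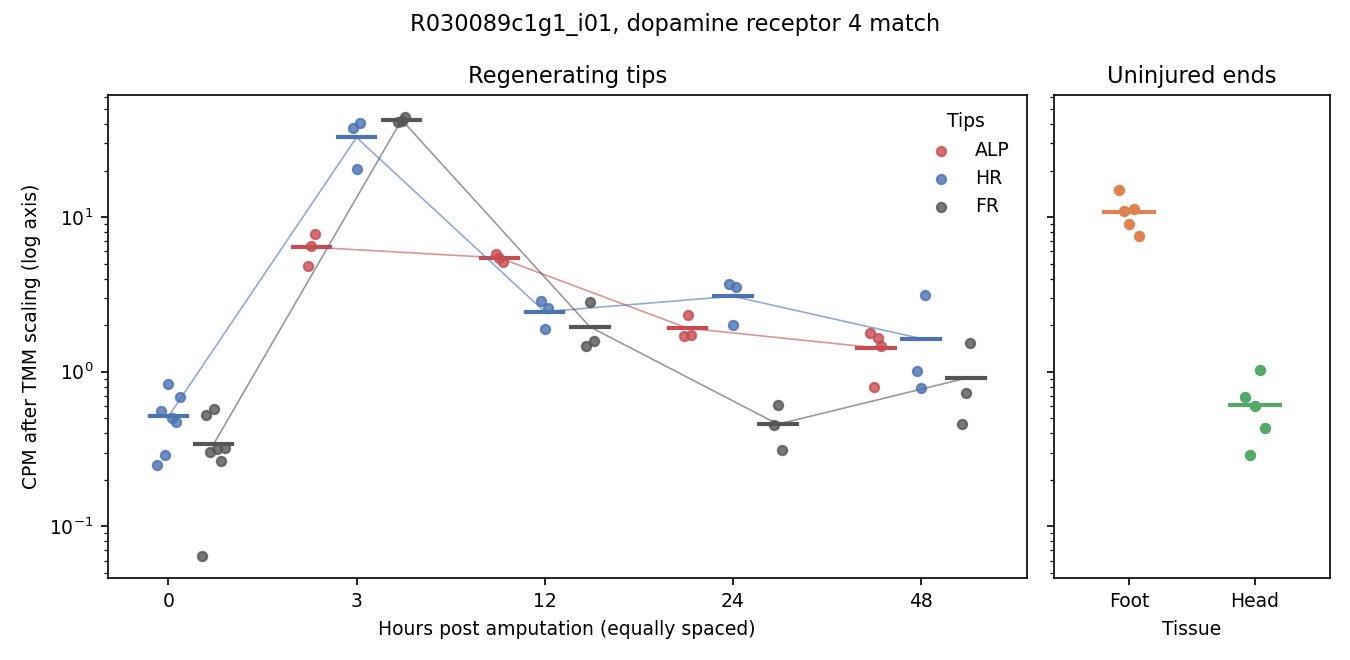
CPM after TMM scaling of R030089c1g1_i01 on a log axis, each point a library, bars and thin lines the group means. ALP, HR and FR tips are side by side at each time (times equally spaced), uninjured Foot and Head on the right. FR and HR tips peak at 3 hpa, with means of 42.6 and 32.8 CPM, and ALP tips stay between 4.87 and 7.79 CPM there.

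Over the 16 groups the mean level ran between 42.6 CPM and 0.339 CPM. The order of the means was FR at 3 hpa (42.6 ± 1.5 CPM, SD, n = 3), HR at 3 hpa (32.8 ± 10.9, n = 3), Foot (10.8 ± 2.85, n = 5), ALP at 3 hpa (6.40 ± 1.47, n = 3) and ALP at 12 hpa (5.46 ± 0.333, n = 3). Next came HR at 24 hpa (3.08 ± 0.927 CPM, SD, n = 3), HR at 12 hpa (2.45 ± 0.490, n = 3), FR at 12 hpa (1.96 ± 0.744, n = 3) and ALP at 24 hpa (1.91 ± 0.350, n = 3). The low end held HR at 48 hpa (1.64 ± 1.29 CPM, SD, n = 3), ALP at 48 hpa (1.43 ± 0.440, n = 4), FR at 48 hpa (0.908 ± 0.556, n = 3), Head (0.605 ± 0.277, n = 5), HR at 0 hpa (0.513 ± 0.206, n = 7), FR at 24 hpa (0.458 ± 0.148, n = 3) and FR at 0 hpa (0.339 ± 0.170, n = 7). Neighbours were apart in range only between FR at 3 hpa, HR at 3 hpa and Foot, and between ALP at 12 hpa and HR at 24 hpa. All other neighbours in this order overlapped.

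The oral and aboral wounds were compared at each time to ask whether the response depended on the polarity of the wound. At 3 hpa HR tips had 37.67, 20.36 and 40.41 CPM and FR tips 41.53, 42.05 and 44.34 CPM. All 3 HR libraries lay below all 3 FR libraries, but the difference of -0.38 ± 0.23 (log2, SE, 95% interval -0.85 to 0.09) did not pass the test (edgeR quasi-likelihood test, two-sided, Benjamini-Hochberg adjusted p = 0.45, threshold 0.01). Of all transcripts 2.94% passed it. The difference between the wounds in the rise from 0 to 3 hpa did not pass either, with HR less FR at -0.98 ± 0.51 (log2, SE, 95% interval -2.01 to 0.05, edgeR adjusted p = 0.62, 0.0396% of all transcripts called). Library 2 of HR at 3 hpa carried part of this gap, since without it HR less FR at 3 hpa was -0.12. The comparisons of the wounds at 0 and 3 hpa and of their rises use only libraries that chose the transcript. A transcript chosen for rising at both wounds is likely to look alike at both, so no likeness of the wounds is concluded.

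The wounds parted at 24 hpa. HR tips had 74, 33 and 55 reads, or 3.696, 2.014 and 3.529 CPM, against 9, 10 and 8 reads, or 0.4508, 0.6091 and 0.3125 CPM in FR tips. Every HR library lay above every FR library, by a fitted 6.98-fold (log2 2.80 ± 0.46, SE, edgeR adjusted p = 1.05e-05). Of all transcripts, 4.46% were called at this time, and 77 had a larger fitted excess in HR tips. At 0 hpa (log2 0.61 ± 0.46, SE, adjusted p = 0.544, 3.82% called), 12 hpa (0.30 ± 0.36, adjusted p = 0.628, 8.84% called) and 48 hpa (1.00 ± 0.43, adjusted p = 0.0681, 22.7% called) HR less FR did not pass the edgeR test. The value at 48 hpa rested on single libraries, since it was 0.06 without library 3 of HR (adjusted p = 0.957) and 1.59 without library 3 of FR (adjusted p = 0.0129).

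After the peak the transcript fell steeply at both wounds. FR tips had 38, 69 and 23 reads at 12 hpa, or 1.478, 2.812 and 1.576 CPM. They lay 21.4-fold below FR tips at 3 hpa (log2 -4.42 ± 0.30, SE, edgeR adjusted p = 8.54e-17, 7.84% of all transcripts called). Only 7 transcripts fell further. HR tips at 12 hpa had 2.853, 1.903 and 2.584 CPM, 13.4-fold below HR tips at 3 hpa (log2 -3.74 ± 0.30, SE, edgeR adjusted p = 7.24e-14, 5.79% called). These comparisons share the libraries at 3 hpa for which the transcript was chosen.

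The fall did not reach the starting level by 12 hpa. FR tips at 12 hpa were 5.83-fold above FR tips at 0 hpa (log2 2.54 ± 0.46, SE, edgeR adjusted p = 3.9e-05, 9.93% of all transcripts called). At 24 hpa the difference of FR tips from 0 hpa did not pass the test (0.38 ± 0.63, SE, 95% interval -0.89 to 1.65, adjusted p = 0.699, 22.1% called). In the second batch, which holds all libraries at 24 hpa, FR tips at 0 hpa had 0.318, 0.2659 and 0.3199 CPM. At 48 hpa FR tips had 0.4604, 0.7334 and 1.53 CPM and did not pass the test against 0 hpa (1.35 ± 0.54, SE, edgeR adjusted p = 0.0525, 20% called). That one call changed with the tool, since DESeq2 gave an adjusted p of 0.00853. These comparisons share the FR libraries at 0 hpa whose low values chose the transcript, so their p-values are not independent evidence.

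In HR tips the difference from the start passed the test at each later time. They were 4.72-fold above HR tips at 0 hpa at 12 hpa (log2 2.24 ± 0.42, SE, edgeR adjusted p = 7.34e-05, 11.6% of all transcripts called) and 5.97-fold above at 24 hpa (2.58 ± 0.41, adjusted p = 1.18e-06, 23.8% called). In the second batch HR tips at 0 hpa had 0.4998, 0.4763 and 0.689 CPM, below all 3 libraries at 24 hpa. At 48 hpa HR tips had 1.013, 0.7841 and 3.123 CPM and were 3.35-fold above 0 hpa (log2 1.74 ± 0.43, SE, edgeR adjusted p = 0.000766, 35% called). The value at 48 hpa rested on library 3, the highest of the group. Without it the difference was 0.80 with an adjusted p of 0.222. The HR libraries at 0 hpa also chose the transcript by their low values, so these p-values are not independent evidence either.

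Alsterpaullone was compared with DMSO at the same wound to ask what early Wnt activation changed. At 3 hpa, at the end of the exposure, ALP tips had 103, 120 and 166 reads, or 4.865, 6.549 and 7.788 CPM, against 661, 742 and 738 reads, or 41.53, 42.05 and 44.34 CPM in FR tips. Every ALP library lay below every FR library, and the fitted level was 6.66-fold lower in ALP tips (log2 -2.73 ± 0.26, SE, 95% interval -3.26 to -2.21, edgeR adjusted p = 2.76e-11). Of the transcripts tested, 13.1% were called, 6.91% as lower, and 180 had a larger fitted fall. This comparison shares the FR libraries at 3 hpa that chose the transcript, and the study placed it in a module of its ALP time course, so the direction is not independent evidence.

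The rise was lowered and not abolished. ALP tips at 3 hpa were 18.7-fold above FR tips at 0 hpa (log2 4.23 ± 0.39, SE, edgeR adjusted p = 8.11e-13, 25.9% of all transcripts called), and every ALP library lay above every FR library at 0 hpa. The 0 hpa libraries are shared with the choosing contrast.

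At later times the order was the opposite. At 12 hpa, after the drug had been washed out, ALP tips had 118, 117 and 100 reads, or 5.774, 5.482 and 5.109 CPM, against 1.478, 2.812 and 1.576 CPM in FR tips. ALP tips were 2.74-fold higher (log2 1.45 ± 0.32, SE, edgeR adjusted p = 0.00168, 4.01% of all transcripts called, 2.31% as higher and 1.69% as lower), and the groups did not overlap. Without library 1 of FR at 12 hpa the difference was 1.25 (adjusted p = 0.025), and without library 3 it was 1.35 (adjusted p = 0.013), so the call depended on both.

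At 24 hpa ALP tips had 27, 41 and 32 reads, or 1.705, 2.317 and 1.717 CPM, against 0.4508, 0.6091 and 0.3125 CPM in FR tips. They were 4.32-fold higher (log2 2.11 ± 0.50, SE, edgeR adjusted p = 0.00138, 10.9% of all transcripts called, 4.8% as higher and 6.11% as lower), again with no overlap. Leaving out library 3 of FR at 24 hpa gave 1.86 (adjusted p = 0.0197) and leaving out library 2 of ALP at 24 hpa gave 1.95 (adjusted p = 0.0119). At 48 hpa ALP tips had 1.794, 0.8016, 1.659 and 1.46 CPM, against 0.4604, 0.7334 and 1.53 CPM in FR tips. These groups overlapped, and the difference did not pass the test (0.77 ± 0.41, SE, 95% interval -0.07 to 1.6, edgeR adjusted p = 0.187, 16.1% called).

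The ALP effect at 12 hpa exceeded that at 3 hpa by 4.19 ± 0.41 (log2, SE, edgeR adjusted p = 6.1e-11, 13.3% of all transcripts called), and 153 transcripts had a larger difference. This contrast holds the FR libraries at 3 hpa whose high values chose the transcript, so its p is not independent evidence of a change of order. The differences at 12 and 24 hpa use none of those libraries. The module in which the study placed the transcript was built on a time course that holds these times. Their direction is therefore not independent evidence either. The ALP course was flat where both DMSO courses were steep. ALP tips at 12 hpa differed from ALP tips at 3 hpa by -0.23 ± 0.28 (log2, SE, 95% interval -0.79 to 0.33, edgeR adjusted p = 0.567, 23.3% called).

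**Figure D2:**
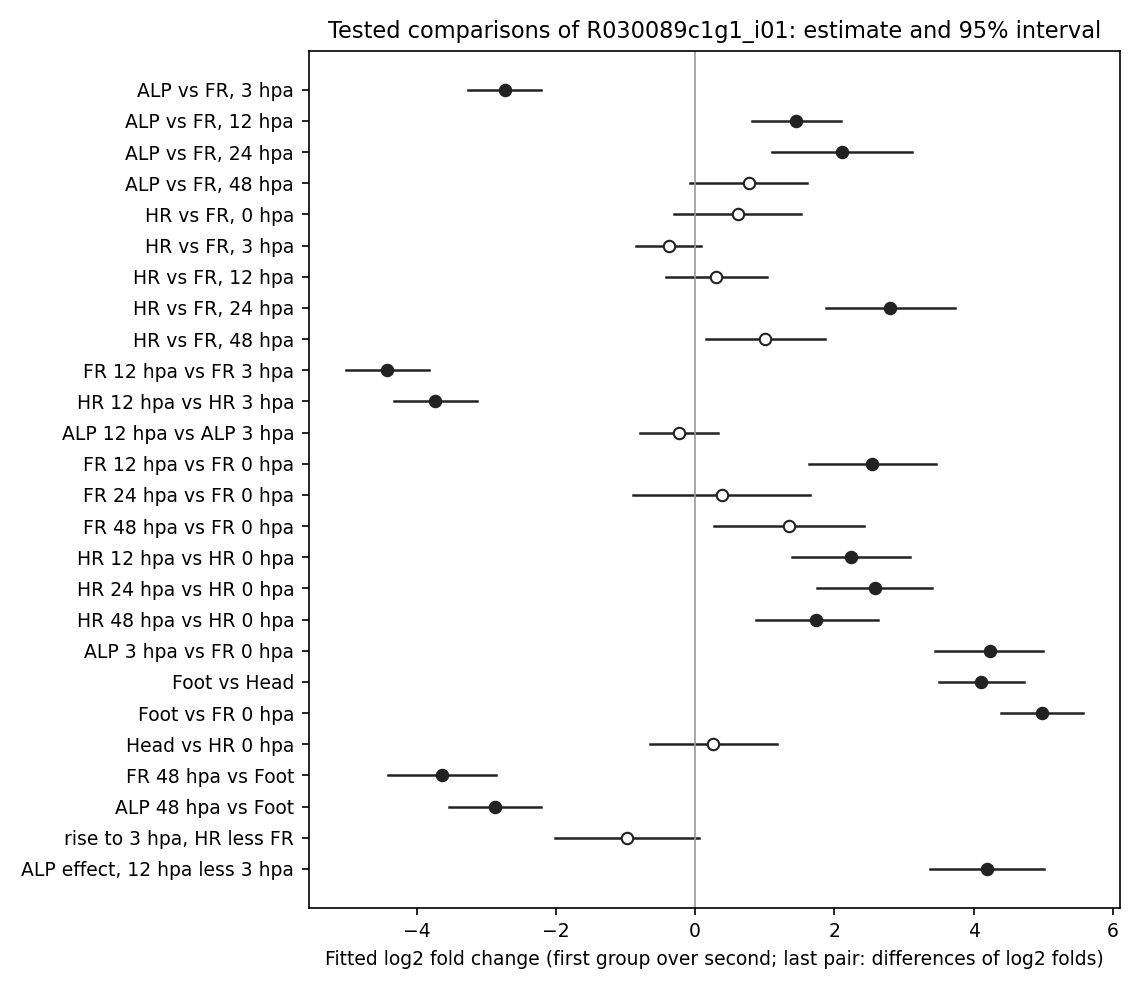
Fitted log2 fold change of R030089c1g1_i01 in the 26 tested comparisons, first-named group over the second, with 95% intervals. The last pair of rows are differences between log2 fold changes, and filled circles passed an adjusted p of 0.01. ALP less FR is -2.73 at 3 hpa and 1.45 at 12 hpa.

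Other measures that moved with the ALP groups at 3 hpa are given beside this result, and their part in it was not tested. In bulk tissue, fewer cells of a type and less RNA per cell cannot be told apart. The 7 nerve cell markers (neuropeptide and ELAV matches) summed to 76.0 to 101 CPM in ALP tips and 76.2 to 90.8 CPM in FR tips, with 3 and 1 neuropeptide transcripts at 0. The 5 gland cell markers (chymotrypsin and mucin matches) summed to 34.8 to 41.9 CPM in ALP and 44.5 to 50.6 CPM in FR tips, with 1 mucin match at 0 in both. The 3 stem cell markers (Piwi and DDX4 matches) summed to 1420 to 1460 CPM in ALP and 1270 to 1320 CPM in FR tips, with none at 0. Of these only the DDX4 match was called, at 533 CPM in ALP and 415 CPM in FR tips (log2 0.36 ± 0.06, SE, edgeR adjusted p = 2.72e-06). The Piwi matches were not (0.03 and 0.05). The 6 matches to ascorbate peroxidase, an activity used to stain the basal disk, summed to 38.5 to 58.9 CPM in ALP tips and 146 to 201 CPM in FR tips, with 3 and 2 members at 0. Nearly all of this sum was R038155c0g1_i01, at 47.9 CPM in ALP and 171 CPM in FR tips, a transcript that is not confined to the foot (265 CPM in FR tips at 0 hpa and 648 CPM in Head). Nerve sums overlapped, and the other 3 sums did not.

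Markers beside the later differences are given in the same way, and their part was not tested. At 12 hpa the peroxidase matches summed to 360 to 520 CPM in ALP and 223 to 237 CPM in FR tips, and the nerve markers to 94.8 to 150 CPM in ALP and 86.0 to 92.6 CPM in FR tips. The gland markers summed to 47.8 to 60.4 CPM in ALP and 41.3 to 47.4 CPM in FR tips. None of these 3 sums overlapped. At 24 hpa the peroxidase matches summed to 432 to 446 CPM in ALP, 243 to 254 CPM in HR and 282 to 287 CPM in FR tips. The nerve markers summed to 127 to 137 CPM in ALP, 84.6 to 91.5 CPM in HR and 142 to 147 CPM in FR tips at that time. The gland markers summed to 43.6 to 51.5 CPM in ALP, 28.1 to 32.6 CPM in HR and 47.4 to 48.6 CPM in FR tips, and the stem cell markers to 1200 to 1250 CPM in ALP, 1260 to 1290 CPM in HR and 1230 to 1240 CPM in FR tips. Between HR and FR tips at 24 hpa none of the 4 sums overlapped. The nerve sums were already apart at 0 hpa, with 41.5 to 51.5 CPM in HR and 69.5 to 83.1 CPM in FR tips. So were the gland sums, with 26.8 to 33.5 CPM in HR and 37.5 to 51.2 CPM in FR tips. The peroxidase and stem cell sums overlapped at 0 hpa.

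Uninjured tissue was read to ask where the transcript is found without a wound. Foot libraries had 276, 191, 157, 184 and 121 reads, or 15.08, 10.95, 9.036, 11.32 and 7.511 CPM, against 0.6834, 0.2902, 0.6037, 1.019 and 0.4299 CPM in Head libraries. The groups were wide apart, 17.3-fold by the fit (log2 4.11 ± 0.31, SE, edgeR adjusted p = 1.23e-17). The uninjured ends differ in much of the transcriptome, with 67.1% of all transcripts called and 317 showing a larger excess in Foot. The study put this transcript on its list of 404 foot-specific transcripts, chosen on these libraries, so its excess in Foot is not an independent finding.

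Foot also stood above the fresh wound of the body column, by 31.6-fold over FR tips at 0 hpa (log2 4.98 ± 0.30, SE, edgeR adjusted p = 8.97e-22, 66.1% of all transcripts called). Comparisons of the ends with 0 hpa share the libraries whose low values chose the transcript, so their p-values are not independent evidence. The difference of Head from HR tips at 0 hpa did not pass the test (0.26 ± 0.45, SE, 95% interval -0.65 to 1.17, adjusted p = 0.597, 77.2% called), and without library 4 of Head the sign turned, at -0.04. At 48 hpa neither aboral group had reached the Foot level. ALP tips were 7.31-fold below Foot (log2 -2.87 ± 0.33, SE, edgeR adjusted p = 5.12e-11, 58.7% called), and FR tips 12.4-fold below (-3.64 ± 0.39, adjusted p = 4.64e-12, 57.8% called). The batch of each Foot and Head library is not known, so these values have no within-batch check.

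The peroxidase matches summed to 4440 to 5080 CPM in Foot and 650 to 682 CPM in Head, with 1 at 0 in Head. Of the 6, 5 were higher in Foot and R033238c0g1_i05 was lower (0.246 to 0.807 CPM in Foot and 10.9 to 13.7 CPM in Head). The gland markers summed to 5.57 to 9.78 CPM in Foot and 400 to 470 CPM in Head, with Mucin-5B at 0 in Foot. The chymotrypsin-C match R016874c0g3_i01 was the reverse of this sum, with 5.98 CPM in Foot and 1.98 CPM in Head. The nerve markers summed to 884 to 1020 CPM in Foot and 1260 to 1610 CPM in Head, against 69.5 to 83.1 CPM in FR tips at 0 hpa. Nearly all of the Foot sum was the Pol-RFamide match R035154c0g1_i01 (526 CPM) and the LWamide match R036538c0g1_i01 (401 CPM). R035154c0g1_i01 had 29.3 CPM in Head, the reverse of the sum. The Pol-RFamide match R024608c0g1_i01 had 0.808 CPM in Foot, below its 10.5 CPM in FR tips at 0 hpa. The stem cell markers summed to 827 to 884 CPM in Foot and 522 to 586 CPM in Head. Their part in the Foot level of the receptor match was not tested.

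There were 15 other transcripts with a dopamine receptor match, and all 15 were tested. Names are best protein matches in other species, given by the study's tables, which do not cover every transcript. Compared per length, by the FPKM values of the authors (fragments per kilobase of transcript, scaled to library size), R030089c1g1_i01 was the most abundant of the 16 in FR tips at 3 hpa, with 33.1 ± 1.07 FPKM (SD, n = 3). The next was R034309c0g1_i01 with 11.6 FPKM. In FR tips at 0 hpa it ranked 12 of 16 with 0.263 FPKM, and the highest was R040046c2g2_i03, a D(1)-like match, with 6.56 FPKM. Its share of the FPKM summed over the 16 was 42.8% to 49.4% in FR tips at 3 hpa and 0.357% to 2.25% in FR tips at 0 hpa. The values at 0 and 3 hpa chose the transcript, so its rank and share at these times are not independent evidence. The share in HR tips at 24 hpa was 6.42% to 10.4%, against 1.28% to 2.45% in FR tips at 24 hpa.

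The other 4 transcripts matched to dopamine receptor 4 fell into different patterns. R034309c0g1_i01, whose other match is a Gq-coupled rhodopsin, had 11.5 ± 0.776 CPM in FR tips at 3 hpa and 2.96 ± 0.407 CPM at 0 hpa (SD, n = 3 and 7). In ALP tips at 3 hpa it had 7.17 ± 0.788 CPM, lower than in FR tips (log2 -0.69 ± 0.18, SE, edgeR adjusted p = 0.00335), and in Foot it had 14.8 ± 0.595 CPM against 2.16 ± 0.603 CPM in Head. R023676c0g1_i01 had 9.62 ± 1.46 CPM in Foot and at most 0.0536 CPM in Head, and 0.595 CPM in ALP against 1.05 CPM in FR tips at 3 hpa (adjusted p = 0.149). R021192c0g1_i01 and R038133c0g1_i01 were transcripts of the other end, with 0.295 and 0.41 CPM in Foot and 11 and 10.7 CPM in Head, and at most 0.565 CPM in any FR or ALP library at 3 hpa.

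Of the 15, 2 were lower in ALP than in FR tips at 3 hpa and none higher, against 6.91% and 6.22% of all transcripts. The second was R033138c0g3_i01, a D(2) match (log2 -1.57 ± 0.37, SE, edgeR adjusted p = 0.0011), and R033138c0g1_i01, of the same assembly cluster and possibly the same gene, had -1.40 ± 0.42 (adjusted p = 0.0108). The median of the 15 was -0.79, and that of all transcripts -0.023. At 12 hpa none of the 15 was called between ALP and FR tips, against 4.01% of all transcripts. At 24 hpa both R033138 transcripts were higher in ALP tips, by 3.22 ± 0.61 and 2.40 ± 0.49 (log2, SE, edgeR adjusted p = 6.34e-05 and 0.000191), and no other. Of all transcripts, 4.8% were higher and 6.11% lower at that time. Between the uninjured ends 5 of the 15 were higher in Foot and 9 lower, against 37.8% and 29.3% of all transcripts.

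**Figure D3:**
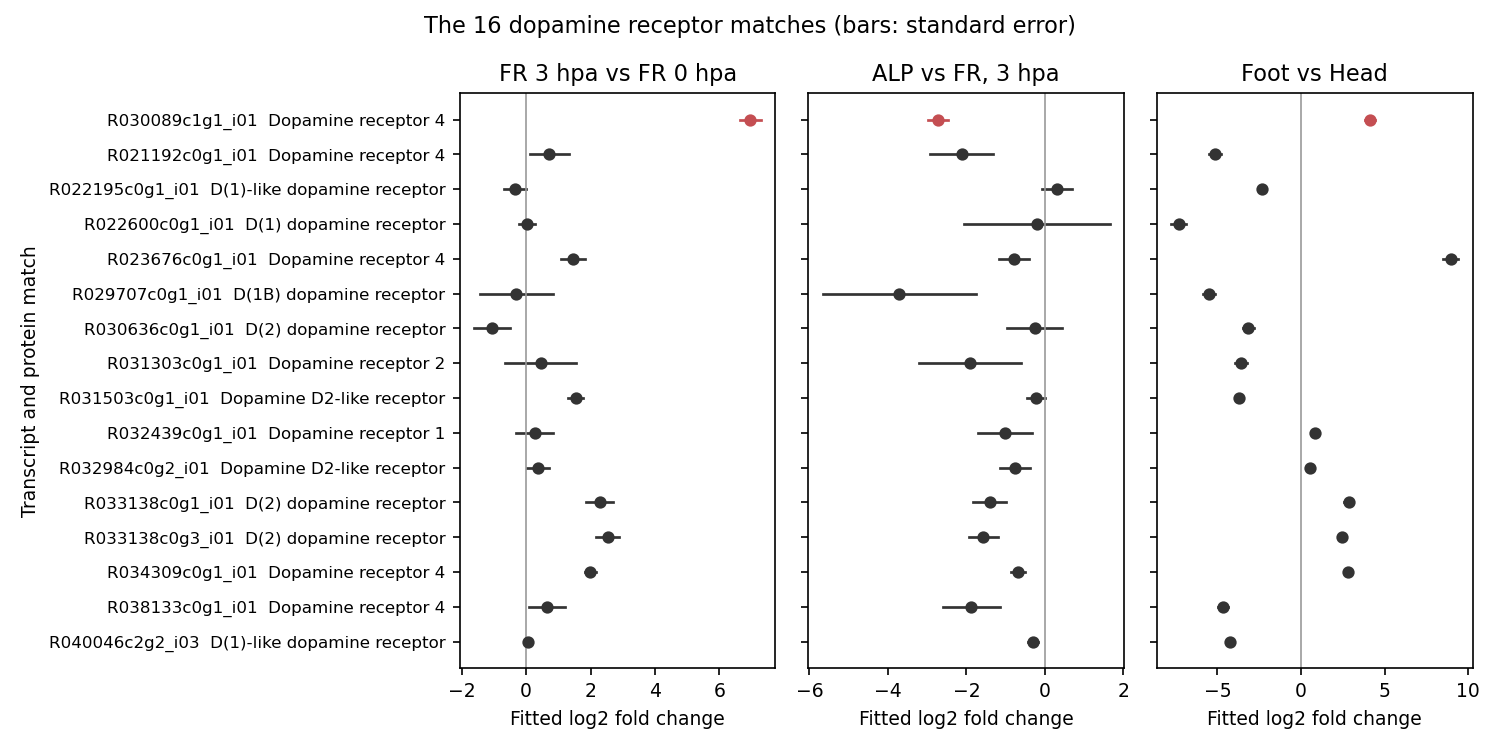
Fitted log2 fold changes of the 16 transcripts with a dopamine receptor match, with standard errors, in FR tips at 3 over 0 hpa, ALP over FR tips at 3 hpa, and Foot over Head. R030089c1g1_i01 (red, top row) lies at 6.96, -2.73 and 4.11, and the next largest in the left panel is R033138c0g3_i01 at 2.53. The left panel holds the libraries that chose R030089c1g1_i01, so its lead there is not independent evidence.

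Amine synthesis was represented by 2 matches to aromatic-L-amino-acid decarboxylase, which makes dopamine from L-DOPA. Only 1 of them was called between ALP and FR tips at 3 hpa, against 13.1% of all transcripts. R014915c0g1_i01 had 3.05 ± 0.39 CPM in ALP and 9.88 ± 1.36 CPM in FR tips at 3 hpa (SD, n = 3 each, log2 -1.69 ± 0.30, SE, edgeR adjusted p = 3.57e-05). R030354c0g1_i01 had 116 ± 9.21 CPM in ALP and 96.6 ± 7.83 CPM in FR tips at 3 hpa, a difference of 0.26 ± 0.10 (log2, SE) that did not pass (adjusted p = 0.0701). At 12 hpa R030354c0g1_i01 had 65.6 ± 5.65 CPM in ALP and 87.3 ± 5.81 CPM in FR tips and was lower (log2 -0.42). R014915c0g1_i01 had 9.25 to 11.5 CPM in ALP and 5.99 to 6.99 CPM in FR tips at 12 hpa, ranges that did not overlap, but the difference did not pass (0.72 ± 0.27, log2, SE, edgeR adjusted p = 0.0865). At 24 hpa it had 11.6 CPM in ALP and 6.38 CPM in FR tips (0.87 ± 0.28, adjusted p = 0.021).

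Other amine receptors (serotonin, adrenergic, histamine and the like) had 51 matches, and parts of receptor signaling had 9. Of the 51, 3 were lower in ALP than in FR tips at 3 hpa and none higher, or 5.88% and 0%, against 6.91% and 6.22% of all transcripts. Their median was -0.43 (log2), and the share called was near that of all transcripts. The 3 were a histamine H2 match, R035108c0g2_i01 (-2.79), a beta-2 adrenergic match, R038273c0g2_i01 (-1.24), and an alpha-1A adrenergic match, R012451c0g2_i01 (-0.70), receptors of other amines in vertebrates. Of the 9 signaling matches, 1 was higher and 1 lower, against 6.22% and 6.91% of all transcripts. They were G protein-coupled receptor kinase 5, which tags active receptors for shutdown (0.34), and adenylate cyclase type 9, which makes cyclic AMP (-0.30). Between the ends, 12 of the 51 were higher in Foot and 31 lower (23.5% and 60.8%), against 37.8% and 29.3% of all transcripts.

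The bZIP factors of the injury response were read beside the receptor match. Fos, which forms the AP-1 factor with Jun, had 227, 228 and 217 CPM in FR tips at 3 hpa. In HR tips at 3 hpa it had 176, 93.8 and 157 CPM, and in ALP tips 87.9, 95.7 and 111 CPM. Fos was lower in ALP than in FR tips at 3 hpa (log2 -1.19 ± 0.24, SE, edgeR adjusted p = 0.000173). It was higher in ALP tips at 12 hpa (1.48 ± 0.29 with an adjusted p of 0.000388) and at 24 hpa (2.76 ± 0.34 with an adjusted p of 1.56e-08). Creb had 21.8, 24.6 and 21.7 CPM in ALP and 33.9, 34.6 and 37.8 CPM in FR tips at 3 hpa (log2 -0.64). Jun had 49.1, 56.0 and 55.5 CPM in ALP against 63.0, 69.4 and 69.4 CPM in FR tips (log2 -0.33). Unlike fos and creb, jun did not rise in FR tips after the cut. Its means there were 74.2 CPM at 0 hpa and 67.3 CPM at 3 hpa (log2 -0.14 ± 0.06, SE, edgeR adjusted p = 0.132). All 3 were lower in ALP than in FR tips at 3 hpa, and of the 3 fos alone was called at 12 and 24 hpa. Of all transcripts, 6.91% were lower at 3 hpa, and 4.01% and 10.9% were called at 12 and 24 hpa.

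Fos and the receptor match deviated together in some libraries and not in others. Library 2 of HR at 3 hpa was the lowest of its group in both, at 20.36 CPM for the receptor match and 93.8 CPM for fos. Library 3 of HR at 48 hpa was the highest in both, with fos at 22.3 CPM against 6.07 and 6.11 CPM in the others. In Foot library 1 was the highest in both, at 15.08 CPM for the receptor match and 19.1 CPM for fos. Library 5 of Foot was the lowest in both, at 7.511 and 4.28 CPM. In ALP tips at 3 hpa and FR tips at 48 hpa the libraries had the same order in both. In FR tips at 24 hpa they ran opposite, with library 2 highest in the receptor match and lowest in fos and library 3 lowest and highest. Library 3 of FR at 3 hpa was highest in the receptor match and lowest in fos. These FR groups had little spread, with 8 to 10 reads of the receptor match at 24 hpa and 41.53 to 44.34 CPM at 3 hpa. HR tips at 24 hpa also ran opposite, with fos at only 18.9 to 20.1 CPM. Over deviations from the group means in 61 libraries the Pearson correlation of the log2 CPM was 0.444 for fos, 0.183 for creb and 0.159 for jun. It was 0.508 for R034309c0g1_i01, 0.492 for R035268c0g1_i01, a Ras-like match, and 0.293 to 0.404 for the other 5 transcripts of similar course named below, so fos was not the highest. The libraries share scaling and depth, and this is a description.

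**Figure D4:**
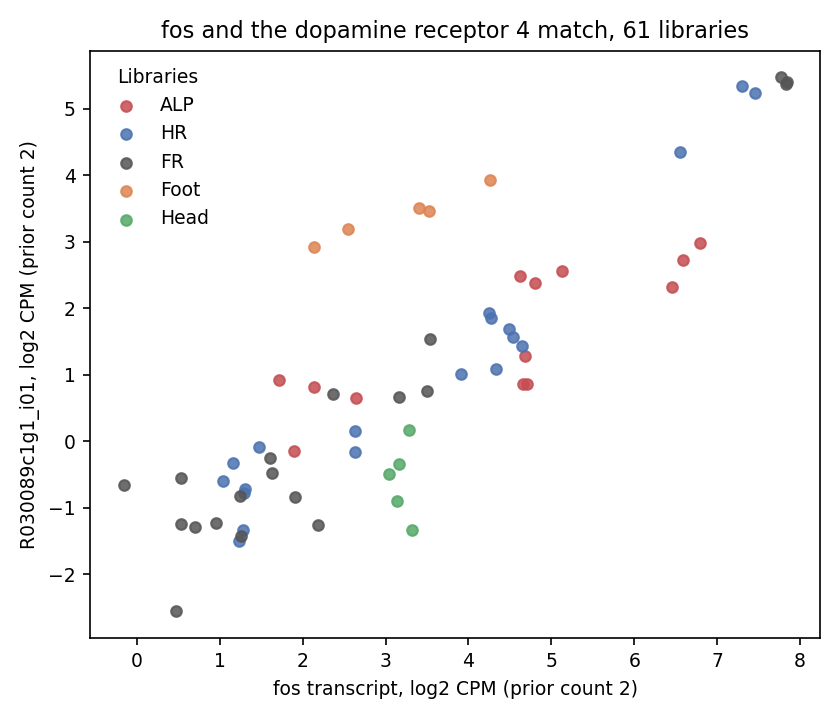
Log2 CPM of R030089c1g1_i01 (vertical) against that of the fos transcript R029832c0g1_i01 (horizontal), each of the 61 points a library coloured by series. The FR and HR libraries at 3 hpa form the upper right group, and the 5 Foot libraries lie above the main band, with Foot and Head at means of 10.2 and 9.05 CPM of fos but 10.8 and 0.605 CPM of the receptor match.

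Likeness to the course of the receptor match was measured as the Pearson correlation of the mean log2 CPM (prior count 2) over the groups, among 1995 tested transcripts with a protein match and a mean log2 CPM above 0. Over 16 groups the most alike were R034309c0g1_i01, the dopamine receptor 4 match above (r = 0.893), fos (0.882), a transposon Pol polyprotein match, R041483c1g3_i03 (0.876), the Ras-like match R035268c0g1_i01 (0.841), the AP-1 match R037979c0g1_i01 (0.839) and the kinase match R037514c0g1_i03 (0.830). Over the 14 groups of wounded tissue they were R033164c0g1_i01, a galanin receptor match (0.955), fos (0.954), R037514c0g1_i03 (0.953), R034309c0g1_i01 (0.940), a calpain small subunit match, R029533c1g1_i01 (0.932), and R037979c0g1_i01 (0.928). The points share libraries and a scaling, and no p is attached. Among all 17676 transcripts, with or without a protein match, 1 other had r above 0.9 over 16 groups and 19 over 14 groups.

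Transcripts alike over the wounds differed in the uninjured ends. The calpain small subunit match, which regulates calcium-dependent proteases, had 9.37 CPM in ALP, 43.3 CPM in FR tips at 3 hpa and 0.44 CPM in FR tips at 0 hpa. In the ends it had 7.31 CPM in Foot and 23.7 CPM in Head, the reverse of the receptor match. The galanin receptor match, itself a peptide receptor of the same superfamily, had 30.6 CPM in Foot and 16.1 CPM in Head. In the dopamine receptor 4 match R034309c0g1_i01 and in R030089c1g1_i01 alike, Foot lay above Head and FR tips at 3 hpa above both FR tips at 0 hpa and ALP tips at 3 hpa. This order was not particular to them. The galanin receptor match, R041483c1g3_i03 and the AP-1 match had it too, with 30.6, 20.5 and 128 CPM in Foot and 16.1, 9.46 and 110 CPM in Head. All were picked for their likeness over groups that include these tips.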

How the data were processed

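The authors trimmed reads with Trimmomatic (0.39 in the submitters' processing notes), aligned them with Bowtie2 and deposited RSEM expected counts per transcript, without batch correction, on a redundancy-reduced *H. oligactis* transcriptome. They also deposited FPKM values from RSEM, of which 35 columns were used. For HR at 3 hpa the table holds 4 columns against 3 described samples, so those 4 were left out. Expected counts of 61 libraries were rounded (5.33% were not whole). For 30 libraries the sample is known, and for 31 the group only.

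edgeR 4.0.16 (R 4.3.3) kept 17676 of 23396 transcripts by filterByExpr (minimum count 10, total 15). TMM scaling and a quasi-likelihood fit followed, with a term per group and a batch term (0 or 1, and 0.4 for the 10 Foot and Head libraries, whose batch is not known). There were 44 residual degrees of freedom. Tests were two-sided with Benjamini-Hochberg adjustment over all transcripts and a threshold of 0.01. The fit was tested on simulated data. Reads of near-identical copies may be shared, and no genome or transcript sequence was used here.

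The transcript and all lists were chosen with earlier results of these data known. Besides the members of the dopamine receptor, amine synthesis and bZIP lists, at most 3 members a list are named, those of smallest p, and for likeness the 6 closest. The lists also hold named foot genes, named Wnt genes and the study's foot-specific list. Alternatives were size factors and Wald test of DESeq2 1.42.0, no filter, no batch term, ComBat_seq (sva 3.50.0), the groups compared only, glmTreat at a fold of 1.2, a threshold of 0.05, a replicate block, FPKM as log2(value + 1) with limma 3.58.1, and each library left out.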

Additional observations from a re-analysis of the deposited data

Results flagged for a closer look

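A difference between time points was the reason for a closer look at 6 transcripts, of 21 for which it was tested (edgeR quasi-likelihood test of the ALP effect at 12 hpa less that at 3 hpa, on the log2 scale). Of all transcripts, 13.3% were called in this test. The 21 include R030089c1g1_i01 and the bZIP factors, which were picked with earlier results known. R030089c1g1_i01 had 4.19 ± 0.41 (SE, adjusted p = 6.1e-11), with ALP tips lower than FR tips in all libraries at 3 hpa and higher in all at 12 hpa. The FR libraries at 3 hpa in this contrast are those whose high values chose the transcript, so its p is not independent evidence. R038133c0g1_i01, a dopamine receptor 4 match at under 1 CPM in the tips, had 3.13 ± 0.90 (adjusted p = 0.00854). Fos (R029832c0g1_i01) had 2.67 ± 0.38 (adjusted p = 4.06e-07) and creb (R027355c0g1_i03) 0.62 ± 0.14 (adjusted p = 0.000731). The decarboxylase match R014915c0g1_i01 had 2.41 ± 0.41 (adjusted p = 1.42e-05), and R030354c0g1_i01 had -0.67 ± 0.15 (adjusted p = 0.000668).

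A library far from its group was seen in 2 of 40 groups checked (5 groups of 4 to 7 libraries for each of 8 transcripts). Chance flags about 1 in 20 such groups. R023676c0g1_i01 had 0.0536 CPM in library 4 of Head, where the other libraries were at 0. R021192c0g1_i01 had 0 CPM in library 3 of HR at 0 hpa, where the next library had 0.183 CPM. R030089c1g1_i01 had no such library in its 5 groups.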

How the results depend on the processing

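Over 26 comparisons of R030089c1g1_i01, 222 values under other settings were computed, and 221 kept the direction and the side of the threshold. The exception was FR at 48 over 0 hpa, which DESeq2 called (log2 1.40). Of 234 values with 1 library left out, with the tested transcripts and dispersion trend of all libraries, 228 kept both. Those that did not were ALP less FR at 12 hpa (range 1.25 to 1.86) and 24 hpa (1.86 to 2.34), HR at 48 over 0 hpa (0.80 to 2.06), and Head less HR at 0 hpa (-0.04 to 0.43), whose sign turned, at -0.04, without library 4 of Head. The cause was not tested. On FPKM the differences of low levels were smaller by construction, as in HR less FR at 24 hpa (1.29).

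Replicate numbers are known for FR and HR at 0 hpa and all tips at 24 hpa. Libraries of the same number deviated together (r above 0.1) in 5 of 16 pairs (r between -0.05 and 0.60), all 5 among the 7 pairs at 0 hpa, and 9 matched their own number best. Since not every pair did and no label ties the numbers, the libraries were not treated as paired, and the matches at 0 hpa are a hint from the data only. With the replicate block HR less FR was 0.63 at 0 hpa and 2.79 at 24 hpa, ALP less FR was 2.11 at 24 hpa, and no call changed. The block called 566, 1535 and 2996 transcripts there, against 517, 1472 and 2901 in the same libraries without it.

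CPM without TMM moved the mean of FR at 3 hpa to 45.27 CPM by more than its SD. Of the 6 transcripts most alike over 16 groups, 3 were also in the list by Spearman's correlation. Counts of called transcripts moved by over 1.5 times in 21 of 26 comparisons with glmTreat, in 14 at a threshold of 0.05 and in 10 with the compared groups only. For ALP against FR at 3 hpa they were 574 with glmTreat, 3850 at 0.05 and 2321 as reported, at 12 hpa 228, 1580 and 708, and at 24 hpa 571, 3077 and 1928. For HR against FR at 24 hpa they were 406, 1256 and 789, and 2014 with the compared groups only. For FR at 12 against 3 hpa they were 386, 2727 and 1385, and for the change of the ALP effect 766, 4026 and 2359. For HR less FR in the rise to 3 hpa they were 7 as reported, 35 with DESeq2, 12 on ComBat_seq counts, 25 at 0.05 and 0 with glmTreat. Under 1 CPM the transcript rests on few reads a library, which limits the comparisons among 0 hpa, Head and late FR tips.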

Other observations

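Other foot genes were set beside the receptor match, whose place on the foot-specific list of the study came from these libraries. Of the other 402 tested members, 28 were lower and 2 higher in ALP than in FR tips at 3 hpa (6.97% and 0.498%, against 6.91% and 6.22% of all transcripts), and 10 were lower and 41 higher at 24 hpa (2.49% and 10.2%, against 6.11% and 4.8% of all transcripts). Of 8 foot genes named by the study, dlx2 and gata3 were lower in ALP tips at 3 hpa, by -1.92 ± 0.30 and -0.83 ± 0.21 (log2, SE), and none higher. At 24 hpa 7 of the 8 were higher, against 4.8% of all transcripts, in a list the study chose on these libraries. Dlx2, a homeobox factor, had the same sequence of signs as the receptor match, with 1.52 ± 0.24 at 12 hpa and 1.12 ± 0.27 at 24 hpa. The means of gata3, nkx2 and npyr4 at 12 hpa were instead lower in ALP tips (7.99, 2.47 and 5.39 CPM) than in FR tips (12.7, 4.56 and 5.77 CPM). Fos and the calpain match, neither called higher in Foot than in Head, also had the signs of dlx2, which are thus not particular to foot genes.

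Of 7 named Wnt genes, axin1, a feedback inhibitor of the pathway, and the pathway factor tcf were higher in ALP than in FR tips at 3 hpa (1.12 ± 0.09 and 0.88 ± 0.08), and none lower. Of all transcripts, 6.22% were higher and 6.91% lower at that time. At 12 hpa wnt3, a ligand of the head organizer, and wntless, which carries Wnt proteins to the cell surface, were higher (3.92 ± 0.58 and 1.45 ± 0.10). The difference in wnt3 rested on low levels, with 0.97 to 3.13 CPM in ALP and 0.0685 to 0.163 CPM in FR tips. Of the 6 peroxidase matches 1 was called at 3 hpa, R038155c0g1_i01 (-1.83 ± 0.23), and the same one at 12 hpa (0.87 ± 0.22). The shares called among all transcripts were 13.1% at 3 hpa and 4.01% at 12 hpa. At 12 hpa 4 of 7 nerve cell markers and 1 of 5 gland cell markers were higher in ALP tips, against 2.31% of all transcripts. None of the 3 stem cell markers was called at 12 hpa. In ALP tips at 12 hpa the Pol-RFamide matches R022142c0g1_i01, R025918c0g1_i01 and R035266c0g2_i01 each rested on 1 high library. They ranged over 0 to 3.67, 0.102 to 9.05 and 0 to 5.38 CPM, around means of 1.22, 3.16 and 1.81 CPM. The Pol-RFamide matches R024608c0g1_i01 and R035154c0g1_i01 both had 10.5 CPM in ALP tips, against 9.61 and 11.4 CPM in FR tips.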
